A study of Mus musculus with 6 samples.

Results

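The naive pluripotency transcription factors are 10 genes, listed by name from the known network when earlier results of these data were already known: *Nanog*, *Esrrb*, *Tfcp2l1*, *Klf2*, *Klf4*, *Klf5*, *Zfp42*, *Prdm14*, *Nr0b1* and *Tbx3*. They are 10 of the 35565 genes listed in the count table and 10 of the 15110 genes that passed the filter on low counts and were tested. Bulk RNA sequencing had been carried out on mouse gastruloids, aggregates of embryonic stem cells (ESCs) that form tissues of the trunk, at day 5. The 3 Control (NT) libraries came from cells with a non-targeting construct, which the sample labels call WT, and the 3 KD-1 libraries came from 1 clone in which the long non-coding RNA *T-UCstem1* was knocked down. Both lines derived from the mESC line TBV2 129/SvP, both were grown before aggregation in serum with LIF and 2i, and both received 3 µM CHIR99021, which inhibits GSK3 and so activates the WNT pathway. Each group is a single line, so that a difference between the lines and the knockdown cannot be told apart. Nothing in the labels says whether the libraries of a group came from separate cultures, and p-values then measure the spread between these libraries only. *T-UCstem1* was not analysed here.

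Naive pluripotency is the state of ESCs and of the inner cell mass before implantation. Most of these genes encode DNA-binding proteins that act with OCT4 (*Pou5f1*) and SOX2 and help to keep one another's genes active, and the network is turned off as cells leave the naive state. LIF acts through STAT3 on *Klf4* and *Tfcp2l1*, GSK3 inhibition relieves *Esrrb* and *Tfcp2l1* from repression by TCF3 (*Tcf7l1*), and inhibition of MEK favours *Nanog* and *Klf2*. Several members are also known outside ESCs, *Prdm14*, *Nanog* and *Esrrb* in primordial germ cells, *Klf2* in endothelium, *Klf4* and *Klf5* in epithelia and *Tbx3* in limb, heart and endoderm.

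Start regions of 4 members are shown because they differ in the letters that the network's own factors are known to read. Each line gives 300 bases of RefSeq sequence on GRCm38.p6, which run from upstream of the annotated start to just inside the transcript, on the strand of the gene, for *Nanog* (chr6:122707239-122707538, plus), *Zfp42* (chr8:43306960-43307259, minus), *Klf2* (chr8:72318812-72319111, plus) and *Klf4* (chr4:55532426-55532725, minus). Capitals mark matches on either strand to the octamer TTTGCAT (read by OCT4), to CACCC and to the GC box GGGCGG (both read by KLF and SP factors).
Nanog: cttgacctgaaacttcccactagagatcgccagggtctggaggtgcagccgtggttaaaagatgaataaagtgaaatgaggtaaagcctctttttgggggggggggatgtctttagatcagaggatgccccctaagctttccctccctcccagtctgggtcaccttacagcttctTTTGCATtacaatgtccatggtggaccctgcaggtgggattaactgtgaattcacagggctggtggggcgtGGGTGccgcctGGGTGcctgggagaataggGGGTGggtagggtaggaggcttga
Zfp42: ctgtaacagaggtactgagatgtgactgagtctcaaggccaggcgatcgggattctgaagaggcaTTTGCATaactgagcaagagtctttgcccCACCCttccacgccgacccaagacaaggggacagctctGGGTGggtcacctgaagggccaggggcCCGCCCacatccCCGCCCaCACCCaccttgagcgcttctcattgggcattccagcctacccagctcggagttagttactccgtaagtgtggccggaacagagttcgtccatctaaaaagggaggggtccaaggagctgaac
Klf2: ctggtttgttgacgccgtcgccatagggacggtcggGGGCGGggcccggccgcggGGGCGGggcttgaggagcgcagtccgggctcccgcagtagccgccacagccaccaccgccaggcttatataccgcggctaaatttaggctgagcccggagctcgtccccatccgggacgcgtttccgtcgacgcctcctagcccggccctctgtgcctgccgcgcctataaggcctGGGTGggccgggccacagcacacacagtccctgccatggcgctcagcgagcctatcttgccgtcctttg
Klf4: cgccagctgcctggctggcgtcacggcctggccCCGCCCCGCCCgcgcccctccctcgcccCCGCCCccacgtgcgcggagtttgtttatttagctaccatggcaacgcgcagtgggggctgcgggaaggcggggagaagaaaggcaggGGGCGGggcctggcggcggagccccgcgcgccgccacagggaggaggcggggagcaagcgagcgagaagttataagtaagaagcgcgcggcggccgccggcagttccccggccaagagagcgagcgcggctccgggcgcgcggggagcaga

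The octamer lay at -75 to -69 from the start in *Nanog* and at -185 to -179 in *Zfp42*, and it was not among the letters of the *Klf2* and *Klf4* windows. *Klf2* and *Zfp42* each held 2 GC boxes and *Klf4* held 4, of which a neighbouring pair shares 1 base. The RefSeq table had 9 windows for 7 of the 10 members, with 2 for *Nanog*, which overlap, and 2 for *Esrrb*, and it had none for *Klf5*, *Prdm14* and *Tbx3*. The octamer was in 3 of the 9 windows and in 4.63% of all 32851 windows of the table. CACCC was in 8 of 9 and in 57.5%, and the GC box in 3 of 9 and in 35.7%. The 2 *Nanog* windows hold the same octamer site and the same CACCC sites, which are thus counted in both windows. GC content of the 9 windows ran from 54.3% to 74.3%, against a median of 52.7% over the table. Other searches, on both strands, found no match in the 9 windows, namely TCAAGGTCA (ESRRB, in 0.42% of all windows), ATCAAAG (TCF and LEF, 3.73%), TTCCNGGAA (STAT3, 1.15%), GGTCTCTAA (PRDM14, 0.26%), GCCATNTT (YY1 and REX1, 6.05%) and the paired TFCP2L1 motif (3.44%). These are matches of letters and no measure of binding.

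Levels are TMM-normalized CPM, read counts scaled to a common library size, and the values of a group are given from the shallowest to the deepest library. A gene was called higher or lower in KD-1 where the adjusted p was under 0.05 and the difference exceeded 1.5-fold in that direction. Library totals ran from 20982249 to 85561026 counts. Calls of a higher level in KD-1 numbered 2976 among the 15110 genes tested (19.7%), calls of a lower level 2728 (18.1%), and 5335 genes (35.3%) had every KD-1 library above every Control (NT) library. Of the naive factors, 9 of 10 were called higher in KD-1, none was called lower, and the same 9 had all KD-1 libraries above all Control (NT) libraries. Their median log2 fold change was 1.54, beside -0.01 over all genes tested. *Nanog*, *Esrrb*, *Tfcp2l1*, *Klf2*, *Zfp42* and *Klf4* had already been displayed by the study from these libraries, so their direction is no independent evidence. The same holds for other genes named below that the study had displayed, among them *Sox2*, *Cripto* (as *Tdgf1*) and *Tbx18*. In bulk RNA, a change in the number of cells that express a gene and a change in RNA per cell cannot be told apart.

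**Figure D1:**
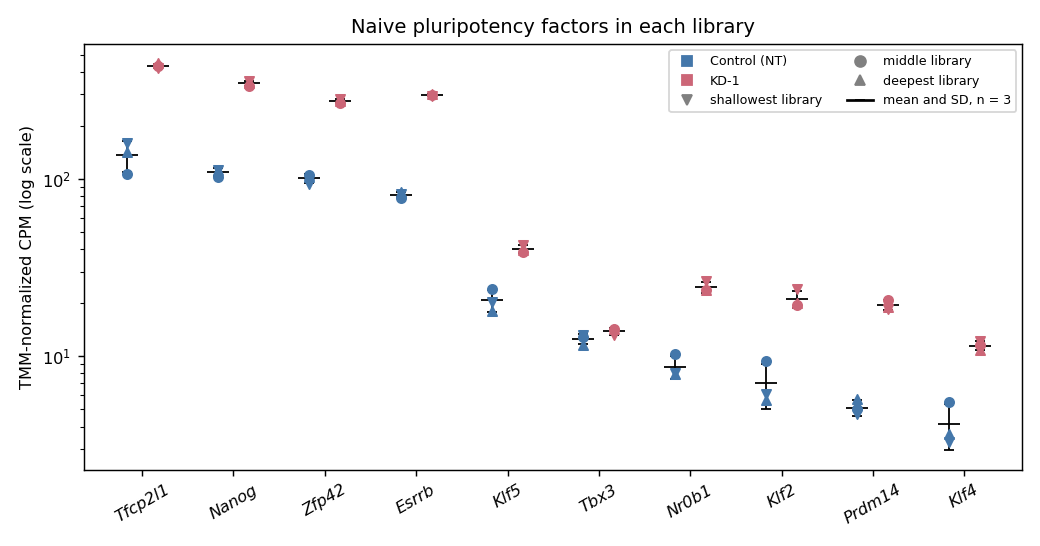
TMM-normalized CPM (log axis) of the 10 factors in each of the 3 Control (NT) libraries (blue) and 3 KD-1 libraries (red), with the mean and SD of each group. The groups lie apart for 9 factors and overlap for Tbx3, and the Control (NT) points of Klf2, Klf4 and Tfcp2l1 are the most scattered.

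*Nanog* encodes the homeodomain protein that holds ESCs in self-renewal (ENSMUSG00000012396, chromosome 6, from 122679780 to 122691601, plus strand, GRCm39). It stood at 112, 102 and 113 CPM in the Control (NT) libraries and at 358, 336 and 345 CPM in the KD-1 libraries. The spread within each group was small beside the gap between the groups. *Nanog* rose by a log2 fold change of 1.67 (standard error 0.061, 95% interval 1.53 to 1.81, edgeR adjusted p = 1.428e-07). Its 2 annotated processed pseudogenes, *Nanog-ps1* and *Nanog-ps2*, were listed at 0 counts in all 6 libraries.

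*Esrrb*, an orphan nuclear receptor downstream of GSK3 inhibition (ENSMUSG00000021255, chromosome 12, from 86407887 to 86568409, plus strand), was at 81.8, 78.3 and 84.0 CPM in Control (NT) and at 295, 298 and 300 CPM in KD-1. Its libraries agreed most closely of the 10 factors in KD-1. It rose by a log2 fold change of 1.87 (standard error 0.054, edgeR adjusted p = 4.698e-08). *Tfcp2l1*, a grainyhead-like factor on which LIF and GSK3 signals converge (ENSMUSG00000026380, chromosome 1, from 118555636 to 118612915, plus strand), was at 160, 107 and 141 CPM in Control (NT) and at 422, 432 and 449 CPM in KD-1. The middle Control (NT) library was the lowest by a wide margin, and the groups still did not overlap. *Tfcp2l1* rose by 1.68 on the log2 scale (standard error 0.13, edgeR adjusted p = 9.193e-06).

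The 3 Krüppel-like factors of the network, zinc finger proteins that share targets in ESCs, all rose, at lower levels. *Klf2* (ENSMUSG00000055148, chromosome 8, from 73072726 to 73075502, plus strand) was at 6.13, 9.35 and 5.61 CPM in Control (NT) and at 23.8, 19.4 and 19.9 CPM in KD-1. Its log2 fold change was 1.58 (standard error 0.18, 95% interval 1.16 to 2.00, edgeR adjusted p = 0.0001031). *Klf4*, one of the factors used for reprogramming (ENSMUSG00000003032, chromosome 4, from 55527139 to 55532528, minus strand), was at 3.28, 5.51 and 3.63 CPM in Control (NT) and at 12.1, 11.5 and 10.8 CPM in KD-1. Its log2 fold change was 1.46 (standard error 0.18, edgeR adjusted p = 0.0001488). For both genes the middle Control (NT) library was the highest of its group, and both intervals are the widest of the 10. *Klf5* (ENSMUSG00000005148, chromosome 14, from 99536086 to 99552473, plus strand), which in the embryo also serves the trophectoderm, was at 20.3, 23.9 and 18.0 CPM in Control (NT) and at 42.5, 38.5 and 39.9 CPM in KD-1. Its rise of 0.96 on the log2 scale (standard error 0.10, 95% interval 0.72 to 1.20, edgeR adjusted p = 6.886e-05) was the smallest of the 9. That interval overlaps those of *Klf2* and of *Klf4* (1.05 to 1.87). *Klf2* lies inside *Eps15l1* on the opposite strand, and whether counting used strand is not given in the sources used here.

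*Zfp42* encodes REX1, a zinc finger protein used as a marker of the naive state (ENSMUSG00000051176, chromosome 8, from 43743871 to 43760152, minus strand). It was at 93.6, 106 and 103 CPM in Control (NT) and at 281, 268 and 275 CPM in KD-1. Its log2 fold change was 1.45 (standard error 0.063, edgeR adjusted p = 3.47e-07). A processed pseudogene, *Zfp42-ps1* on chromosome 15, had 33 to 58 counts in Control (NT) and 147 to 284 in KD-1, and reads can be divided between the copies. With both summed, a choice made after seeing the data, the log2 fold change of *Zfp42* was 1.44.

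*Prdm14*, a PR domain protein that represses FGF signalling and DNA methylation genes and serves germ cell specification (ENSMUSG00000042414, chromosome 1, from 13183405 to 13198351, minus strand), was the lowest of the 10 factors per length in Control (NT). It was at 4.68, 5.00 and 5.69 CPM in Control (NT) and at 18.3, 20.8 and 19.0 CPM in KD-1. Its log2 fold change of 1.90 (standard error 0.11, 95% interval 1.66 to 2.14, edgeR adjusted p = 1.371e-06) was the highest of the 10, with an interval that overlaps that of *Esrrb* (1.75 to 1.99). *Nr0b1*, or DAX1, a nuclear receptor without a DNA-binding domain that binds OCT4 and ESRRB (ENSMUSG00000025056, X chromosome, from 85235338 to 85239554, plus strand), was at 8.01, 10.2 and 7.91 CPM in Control (NT) and at 26.6, 23.5 and 23.6 CPM in KD-1. It rose by 1.49 on the log2 scale (standard error 0.12, edgeR adjusted p = 9.924e-06).

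*Tbx3*, a T-box repressor that sustains *Nanog* in ESCs (ENSMUSG00000018604, chromosome 5, from 119806298 to 119822797, plus strand), was the exception. It was at 13.1, 12.9 and 11.6 CPM in Control (NT) and at 13.1, 14.3 and 14.1 CPM in KD-1, and the groups overlapped. The log2 fold change of *Tbx3* was 0.15 (standard error 0.088, edgeR adjusted p = 0.1699), and its 95% interval of -0.05 to 0.35 lies below the 1.5-fold threshold and below the intervals of the other 9 factors. Its ends overlap the antisense genes *Tbx3os1* and *Tbx3os2*, with which reads can be shared.

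**Figure D2:**
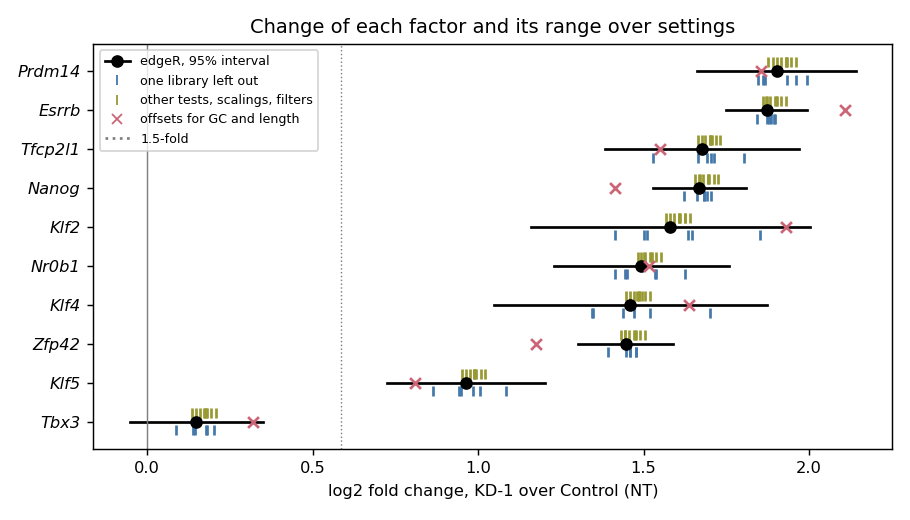
Log2 fold change of each factor (KD-1 over Control (NT)) with its 95% interval from edgeR (black), the values with 1 library left out (blue ticks), under other tests, scalings and filters (olive ticks) and with offsets for transcript GC and length (red crosses). The 9 factors called stay right of the 1.5-fold line in every setting shown, and Tbx3 stays left of it.

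Levels can be set against each other only per length, as CPM per kb of merged exons (SD, n = 3). In Control (NT), *Nanog* was first with 29.7 ± 1.56, followed by *Tfcp2l1* with 14.3 ± 2.82 and *Esrrb* with 13.4 ± 0.474, whose libraries overlapped. *Zfp42* had 9.26 ± 0.587. *Nr0b1* with 4.08 ± 0.618, *Klf5* with 3.95 ± 0.563 and *Klf2* with 3.29 ± 0.950 overlapped with one another, and so did *Klf4* (1.31 ± 0.380) with both *Tbx3* (1.52 ± 0.101) and *Prdm14* (1.01 ± 0.102). In KD-1, *Nanog* remained first with 94.3 ± 3.12 CPM per kb, *Esrrb* followed with 49.2 ± 0.480 and stood above *Tfcp2l1* with 45.7 ± 1.42 in every library, and *Zfp42* had 25.2 ± 0.606. *Nr0b1* (11.5 ± 0.819) and *Klf2* (9.84 ± 1.12) overlapped and both were above *Klf5* (7.69 ± 0.384), *Prdm14* (3.83 ± 0.254) overlapped with *Klf4* (3.64 ± 0.210), and *Tbx3* was last with 1.68 ± 0.0771. Several of these ranks depended on the length used. Per kb of the longest transcript, *Esrrb* (18.9) and *Zfp42* (16.9) stood above *Tfcp2l1* (14.6) in Control (NT), *Klf5* (6.04) above *Nr0b1* (4.08) and *Klf2* (3.52), and *Tbx3* (2.21) above *Klf4* (1.34). By the same measure in KD-1, *Esrrb* had 69.1, *Tfcp2l1* 46.6 and *Zfp42* 46.0, and *Klf5* (11.8) was no longer below *Nr0b1* (11.5) and *Klf2* (10.5). *Nanog* was first in both groups with either length. Among the protein-coding genes tested, *Nanog* moved from the 93.2nd to the 98.0th percentile of this level, *Prdm14* from the 31.6th to the 58.5th and *Tbx3* from the 37.8th to the 40.6th.

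The make-up of the set, as the share of each gene in the summed CPM per kb of the 10, was described as well. *Nanog* held 36.2% ± 1.21 of it in Control (NT) and 37.3% ± 0.539 in KD-1, and the groups overlapped. *Esrrb* held 16.4% ± 0.366 and 19.5% ± 0.503, with every KD-1 library above every Control (NT) library. *Klf5* went from 4.84% ± 0.785 to 3.04% ± 0.0965 and *Tbx3* from 1.86% ± 0.135 to 0.665% ± 0.0419, both without overlap. *Zfp42*, from 11.3% ± 0.940 to 9.98% ± 0.0498, and *Prdm14*, from 1.24% ± 0.127 to 1.52% ± 0.130, did not overlap either, and the other 4 members did. For each, 3 against 3 libraries cannot give an exact permutation p below 0.1.

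OCT4 and SOX2, the partners of these factors, were also higher in KD-1. *Pou5f1* was at 269 ± 52.1 CPM (SD, n = 3) in Control (NT) and at 661 ± 29.9 CPM in KD-1 (log2 fold change 1.29), and *Sox2* was at 114 ± 19.5 and 531 ± 14.7 CPM, a log2 fold change of 2.22. Relative to *Pou5f1*, the log2 fold change was 0.61 more for *Prdm14*, 0.56 more for *Esrrb*, 0.36 more for *Nanog* and 0.30 more for *Klf2*, with ratios that did not overlap between the groups. It was 0.38 more for *Tfcp2l1*, 0.195 more for *Klf4*, 0.19 more for *Nr0b1* and 0.14 more for *Zfp42*, whose ratios overlapped. The difference was -0.34 for *Klf5* and -1.17 for *Tbx3*. *Pou5f1* itself was at 328 CPM in the middle Control (NT) library, against 229 in the shallowest and 251 in the deepest. The log2 ratios of *Nanog* ran from -1.68 to -1.03 in Control (NT) and from -0.997 to -0.807 in KD-1. These ratios were not recomputed with a library left out. Relative to *Sox2* the difference was negative for all 10 factors, from -0.31 for *Prdm14* to -2.09 for *Tbx3*, and the ratios of the groups overlapped for *Prdm14* and *Tfcp2l1*.

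The 3 Control (NT) libraries differed among themselves in a pattern that ran across several factors. The middle Control (NT) library lay above its group mean by 0.45 on the log2 CPM scale for *Klf2* and for *Klf4*, by 0.24 for *Nr0b1* and by 0.21 for *Klf5*, and it lay at -0.33 for *Tfcp2l1*. The KD-1 libraries stayed within 0.18 of their mean for every factor. Over the 6 libraries, Pearson's r of these deviations was 0.99 for *Klf2* with *Nr0b1*, 0.96 for *Klf2* with *Klf5* and -0.99 for *Tfcp2l1* with *Klf4*. These values describe 6 libraries that share depth and preparation, they rest largely on 1 of them, and they carry no p.

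**Figure D3:**
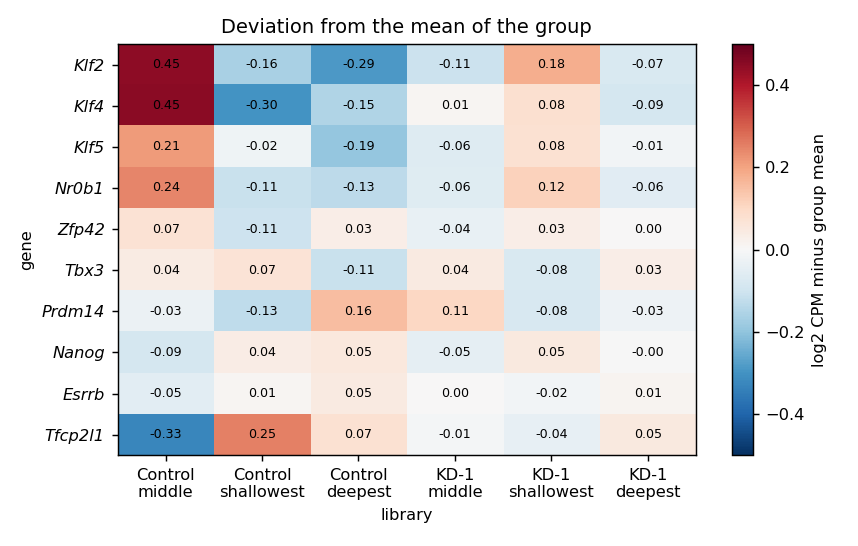
Log2 CPM of each factor (rows) minus the mean of its own group in each of the 6 libraries (columns), with red above and blue below the group mean. The middle Control (NT) library is high for Klf2, Klf4, Klf5 and Nr0b1 and low for Tfcp2l1, and the KD-1 columns are paler.

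Deviations moved with transcript GC and length in the same library, and in the opposite direction in the shallowest Control (NT) library. Quintiles were formed over the tested protein-coding genes, and deviations were read from those detected in every library. The median deviation of the middle Control (NT) library was 0.123 in the quintile with the highest transcript GC and -0.049 in the lowest. It was 0.126 in the shortest and -0.109 in the longest quintile. In the shallowest Control (NT) library it was -0.132 in the highest and 0.076 in the lowest GC quintile. By length it was -0.101 in the shortest and 0.074 in the longest quintile of that library. The median log2 fold change between the groups also ran from 0.294 in the lowest GC quintile to -0.407 in the highest. *Klf2* (62.1% GC), *Klf4* and *Esrrb* (both 54.9%) are in the highest quintile, and *Zfp42* (43.5%) is in the lowest. With offsets for GC and length, an alternative added after seeing the data that moved the median of all genes to -0.12, the log2 fold change was 1.93 for *Klf2*, 1.64 for *Klf4*, 2.11 for *Esrrb*, 1.41 for *Nanog*, 1.55 for *Tfcp2l1*, 0.81 for *Klf5*, 1.18 for *Zfp42*, 1.86 for *Prdm14* and 1.52 for *Nr0b1*. The same 9 factors were called. *Tbx3* then had a log2 fold change of 0.32 (edgeR adjusted p = 0.01458), still under the fold threshold.

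The members lie on 8 chromosomes, and genes on some of these were shifted as a whole. *Tfcp2l1* and *Prdm14* are on chromosome 1, where the median log2 fold change was 0.49 and 40.2% of 871 genes tested were called higher. *Nr0b1* is on the X chromosome, with a median of 0.17 and 27.7% called higher. *Klf2* and *Zfp42* rose on chromosome 8, where the median was -0.17 and 12.8% were called higher. The part of these shifts in the values of single members was not tested.

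Relatives of the members by family did not all follow them. Their counts stand beside 19.7% called higher and 18.1% called lower over all genes tested. Of the 15 other KLF genes, 12 were tested, 7 were called higher and 1 lower, with a median log2 fold change of 0.80. *Klf8* (2.18) and *Klf9* (2.08) had larger log2 fold changes than the 3 members, *Klf3*, *Klf11*, *Klf12* and *Klf15* were not called, and *Klf14* fell from 2.23 to 0.164 CPM. *Klf6* was not called with the offsets for GC and length. *Klf15* was called lower with upper quartile normalization and without the deepest Control (NT) or the deepest KD-1 library. Of the 16 other TBX genes, 10 were tested, 3 were called higher (*Tbx4*, *Eomes*, *Mga*) and 5 lower, with a median of -0.79. *Tbx18*, a somite gene, went from 9.67 to 0.0663 CPM and *Tbx2*, the nearest relative of *Tbx3*, from 1.37 to 0.0973 CPM. The KD-1 levels of both are near the floor, at 3 to 4 counts a library for *Tbx18* and 4 to 7 for *Tbx2*. *Mga* was not called with the GC and length offsets, *Tbx6* was not called without the deepest KD-1 library, and *Tbr1* kept its call in 10 of 16 other settings. Of the 14 other PRDM genes, 5 were called higher and 2 lower, with a median of 0.07, among them *Prdm1*, the partner of *Prdm14* in germ cells (log2 fold change 1.60), and *Mecom* (-2.09).

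**Figure D4:**
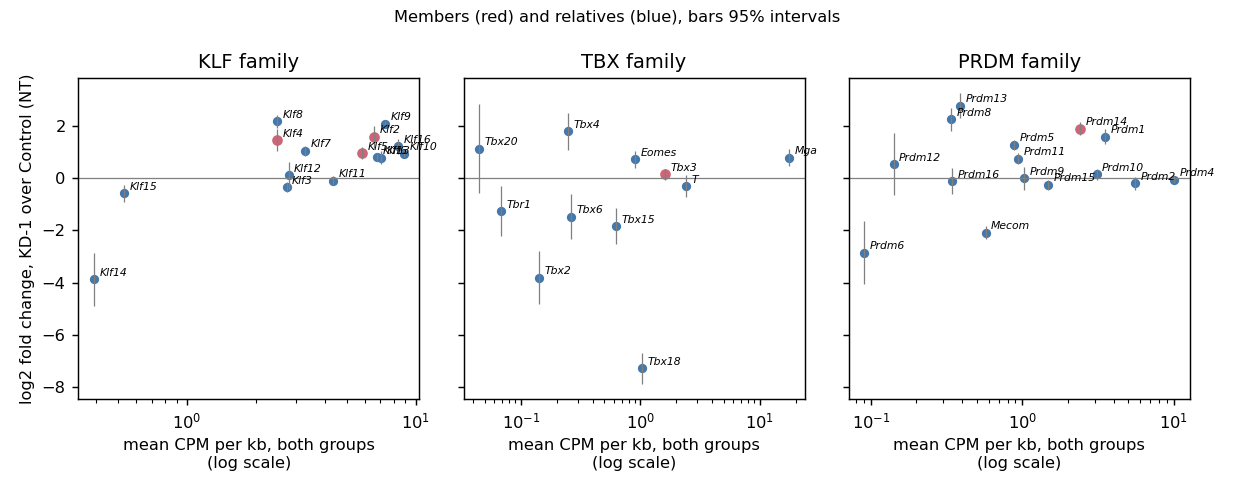
Log2 fold change (KD-1 over Control (NT), bars 95% intervals) of the tested KLF, TBX and PRDM genes against their mean CPM per kb over both groups (log axis), with the naive factors in red and relatives in blue. Each family holds genes that rose and genes that fell, Tbx18 being the lowest point and Klf14 the lowest among the KLF genes.

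The nearest relatives of the remaining members were mixed too. Of 9 tested, 3 were called higher and 1 lower, beside 19.7% and 18.1% over all genes tested. *Esrra*, a relative of *Esrrb*, fell by 0.75 on the log2 scale and *Esrrg* had a value of 0.12. *Tfcp2* (-0.35) and *Ubp1* (-0.09), the closest relatives of *Tfcp2l1*, were not called, whereas *Grhl1* and *Grhl2* of the wider grainyhead family were called higher. *Grhl3* (0.29) of that family was not called. *Yy2* rose from 16.1 to 34.6 CPM and *Yy1*, from whose family *Zfp42* derives, had 0.50 and was not called. *Esrra* and *Yy2* lost their calls with the GC and length offsets.

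The network around the members was followed through lists chosen with earlier results of these data known. The lists share some genes, so their counts are not of separate genes. Of 14 core and partner factors, 10 were called higher and 0 lower, with a median log2 fold change of 0.79. Among the 10 were *Nr5a2* (2.04), an activator of *Pou5f1*, *Zfp281* (1.23) and *Sall4* (0.73). *Nr5a2* and *Zfp281* lie on chromosome 1, where 40.2% of genes tested were called higher. Of 18 genes downstream of the naive factors, 12 were called higher and 3 lower, with a median of 1.53, and *Nr5a2* is counted here again. *Fgf4*, *Fbxo15*, *Gdf3* and *Cripto* rose by 1.56 to 1.63 on the log2 scale and *Dppa2* went from 0.374 to 59.0 CPM. *Lefty1* (-1.04), *Mylpf* (-0.93) and *Dnmt3l* (-1.39) fell, and *Dppa3*, *Tet2* and *Alpl* were not called. Without the shallowest Control (NT) library, *Dppa3* was called higher.

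Genes of the signals that feed the naive factors showed no common direction. Of 23 such genes, 6 were called higher and 5 lower, with a median of 0.07. Over all genes tested, 19.7% were called higher and 18.1% lower, with a median of -0.01. *Stat3* had a log2 fold change of 0.13 and *Tcf7l1* of -0.29, neither called. *Lifr*, the LIF receptor, rose by 0.84, whereas *Socs3*, the feedback target of STAT3, fell from 3.76 to 2.15 CPM and *Pim1*, another target, rose by 0.88. The WNT target *Axin2* had 0.07. Of the targets of ERK, *Etv5*, *Spry4* and *Egr1* rose, and *Dusp6* and *Etv4* fell. *Socs3* and *Mapk3* lost their calls with the GC and length offsets, and *Id1* lost its call without the middle or the deepest Control (NT) library and without the shallowest or the deepest KD-1 library.

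Factors that end the naive state or mark the next one were not lower as a group. Of 14 exit factors, 7 were called higher and 1, *Mbd3*, lower, with a median of 0.58, and *Rbpj* among the 7 lost its call with the GC and length offsets. Of 16 formative and primed factors, 9 were called higher and 2 lower, with a median of 0.90. *Otx2* and *Foxd3* are counted as higher on both of these lists, and *Zfp281* is counted as a core and as an exit factor. *Otx2*, a leading factor of formative cells, went from 4.34 to 42.3 CPM and *Fgf5* from 0.933 to 2.38 CPM. *Pou3f1* went from 0.365 to 3.06 CPM. *Dnmt3a* (-0.74) fell, and so did *Tcf15* (-3.26), which is also counted among the paraxial mesoderm and somite markers below. The study names *Dnmt3a* among pluripotency genes with higher expression in the knockdown, whereas here it went from 120 to 72.0 CPM, without overlap between the groups. *Otx2* and *Fgf5* were higher in the same libraries in which 9 naive factors were higher.

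**Figure D5:**
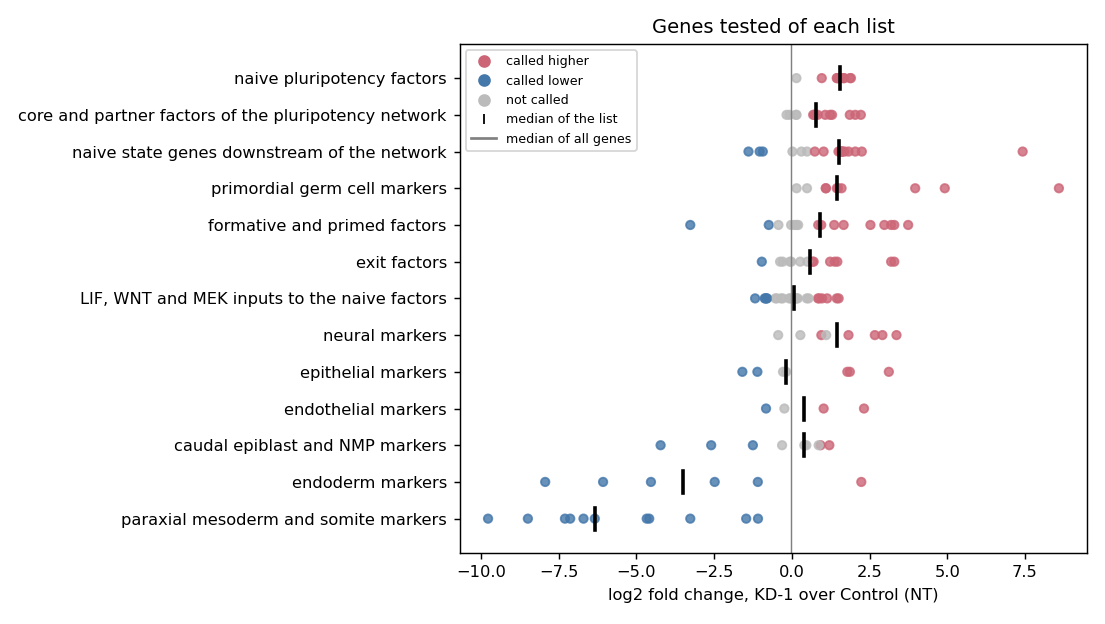
Log2 fold change (KD-1 over Control (NT)) of each tested gene in the lists around the naive factors, with genes called higher in red, called lower in blue and not called in grey, the median of each list as a black bar and the median of all genes tested as a grey line. The naive factors have their median at 1.54, and the paraxial mesoderm and somite genes theirs at -6.34, all called lower.

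Markers of other cells in which members are known to be expressed were read beside these values. Of 10 primordial germ cell markers, 8 were called higher and 0 lower, their summed level running from 71.4 to 75.1 CPM in Control (NT) and from 201 to 203 CPM in KD-1. Among them *Ddx4* went from 0.489 to 15.4 CPM and *Dazl* from 0.0322 to 8.09 CPM, while *Nanos3* and *Dppa3* were not called. Of 8 endothelial markers, 4 were tested, 2 rose and 1 fell (*Kdr*, not called without the middle or the deepest KD-1 library), with sums of 18.2 to 19.2 and 33.9 to 36.0 CPM, most of it *Pecam1*, which ESCs also express. *Tek*, an endothelial receptor, rose from 0.719 to 3.53 CPM (log2 fold change 2.32), while *Emcn* and *Sox18* had at most 12 and 4 counts in a Control (NT) library and 0 in KD-1. Of 8 epithelial markers, 3 rose (*Epcam*, *Cdh1*, *Esrp1*) and 2 fell (*Krt8*, *Krt18*), with sums of 75.4 to 82.1 and 230 to 235 CPM. Of 8 trophoblast markers, 5 were tested and only *Tfap2a* was called, higher, with sums of 2.58 to 2.75 and 7.32 to 7.89 CPM, and *Tpbpa* was at 0 throughout. The part of such cells in the values of the members was not tested.

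The tissues that a gastruloid forms at this age were also read from markers. The 11 paraxial mesoderm and somite markers tested of 12 were all called lower, their sum going from 572 to 658 CPM in Control (NT) down to 47.0 to 47.9 in KD-1. Of 9 endoderm markers, 6 were tested, 5 fell and 1 rose (*Sox7*, not called without the deepest Control (NT) or the shallowest KD-1 library). The 9 caudal markers had sums of 60.4 to 70.9 and 60.0 to 64.8 CPM, with 2 called higher and 3 lower. Over all genes tested, the shares were 19.7% and 18.1%. Of the caudal markers, *Wnt3a* was not called in the edgeR fit and in 11 of 17 other settings, and was called higher in the rest. Of 8 neural markers, 5 were called higher and 0 lower. Markers of the labelled tissue were therefore present in Control (NT), and in KD-1 *Pax3*, at 42.2 CPM, made up most of what remained of the paraxial list.

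The profile of the members over the 6 libraries, the mean of their centred log2 CPM, was matched most closely by *Aldh9a1*, *Syt9*, *Yes1*, *Fgfbp3* and *Gli1*. Their root mean square differences from it were 0.041, 0.045, 0.046, 0.046 and 0.050 on the log2 scale. Likeness here means chiefly a similar rise, since *Aldh9a1* had a log2 fold change of 1.37, *Syt9* of 1.51, *Yes1* of 1.44, *Fgfbp3* of 1.47 and *Gli1* of 1.52.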

How the data were processed

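Bulk RNA sequencing was carried out by the study on 3 Control (NT) and 3 KD-1 gastruloid samples at day 5, with TruSeq libraries and paired-end reads quantified with Salmon (version 1.1, as in the submitters' processing notes) on a Gencode gene model. The authors deposited estimated counts (expected counts) per Ensembl gene as whole numbers without normalization; the build and the use of strand are not given in the sources used here. Salmon divides reads between similar sequences, so that values of genes with copies are uncertain. Columns name the group, and their suffixes cannot be matched to the replicate numbers in the labels, so libraries are named by depth within their group.

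Positions and merged exon lengths came from GENCODE vM39 on GRCm39 (35222 of 35565 identifiers matched), and promoter sequences from RefSeq on GRCm38.p6; no coordinate was converted. Genes were tested with edgeR (version 4.0.16, R 4.3.3) by filterByExpr, TMM normalization (factors 0.975 to 1.03) and a robust quasi-likelihood fit with condition as the only term, with Benjamini-Hochberg adjustment over the 15110 genes tested. Standard errors were derived from the log2 fold change and its F statistic. Alternatives were DESeq2 (version 1.42.0), limma-voom (limma version 3.58.1), other scalings and filters, and each library left out. The text names every member, genes of the lists, and the 5 other genes with the nearest profile. Members and lists were chosen with earlier results of these data known. Precision at low CPM is set by depth: 3 counts correspond to 0.143 CPM in the shallowest library and 0.0351 in the deepest. Such limits cover counting error only.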

Additional observations from a re-analysis of the deposited data

How the results depend on the processing

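No paired analysis was possible because the columns carry no replicate numbers that correspond to those of the labels. The number of naive factors called higher in KD-1 was 9, and the number called lower was 0, in 9 planned settings of test, scaling, filter and robust estimation, in 6 fits with 1 library left out of each, without a fold change threshold, and in both alternatives added after seeing the data. With an absolute log2 fold change over 1, 8 were called higher, *Klf5* being the one lost. With one library left out, the log2 fold change ran from 1.42 to 1.85 for *Klf2*, from 1.35 to 1.70 for *Klf4*, from 1.53 to 1.80 for *Tfcp2l1* and from 0.86 to 1.08 for *Klf5*, and the highest values of *Klf2* and *Klf4* came without the middle Control (NT) library. *Tbx3* was not called in any setting; its adjusted p was 0.0888 to 0.431 with one library left out and 0.0146 with the offsets for GC and length, where it stayed under 1.5-fold. With the length of the longest transcript in place of merged exons, the CPM per kb of *Nanog* became 37.3 in Control (NT) and 119 in KD-1, that of *Esrrb* 18.9 and 69.1 and that of *Zfp42* 16.9 and 46.0. That of *Klf5* became 6.04 and 11.8, and that of *Tbx3* 2.21 and 2.44. With offsets for GC and length, 2514 genes in all were called higher and 3037 lower, in place of 2976 and 2728; library size alone gave 3252 and 2437. Depth limits *Klf4* and *Prdm14* in Control (NT) most, where they lay between 3.28 and 5.69 CPM.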

Other observations

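Epithelial genes were divided in KD-1. *Cdh1*, the cadherin of ESCs and epithelia, was at 35.6 CPM in the Control (NT) libraries and at 123 CPM in KD-1 (log2 fold change 1.79), *Esrp1*, a splicing factor of epithelia, at 5.83 and 50.5 CPM (3.12), and *Grhl2*, a grainyhead factor of the same wider family as *Tfcp2l1*, at 2.41 and 31.6 CPM (3.74). The keratin genes *Krt8* (-1.59) and *Krt18* (-1.11) fell, and *Cldn4* had a log2 fold change of -0.18 and was not called. *Klf5*, which is expressed in many epithelia, had the smallest rise of the 9 naive factors called. A relation between its rise and these epithelial genes was not tested.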
